A study of Gasterosteus aculeatus with 9 samples.

Results

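The collagens measured here were the transcripts of a de novo assembled stickleback gill transcriptome whose first Swiss-Prot match carried a collagen chain name: CO, a letter or digit for the collagen type, A, and a digit for the chain, as in CO1A1 for the alpha-1 chain of type I. Of 98643 transcripts, 105 fitted this rule under 30 names. One of them, the plant entry COPA1, is a subunit of the coatomer coat of transport vesicles and no collagen, and it was set apart. The other 104 transcripts came from 38 assembled genes and carried 29 of the 10495 names in the table, for 22 collagen types. Gills of wild three-spined sticklebacks (Gasterosteus aculeatus) were sampled from 3 fish at each of 3 stations in the River Boye catchment, 9 fish in all. Station A, in the main channel, had 26.378 mg/L chloride. Station C, in a tributary with a history of salt intrusion, had 32 mg/L. Station B, a nearby stream without such influence, had 12.912 mg/L and served as the control site. The fish came from different water bodies, so chloride and any other difference between the sites cannot be told apart.

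Collagens are triple-helical proteins of the extracellular matrix. Fibrillar types such as I, II, III, V and XI form cross-striated fibrils, with type I in bone, skin and connective tissue and type II in cartilage. FACIT types such as XII and XIV sit on fibril surfaces, type IV builds the sheets of basement membranes, type VI forms beaded microfibrils, type VII anchors epithelia, types VIII and X form networks, and types XV and XVIII are basement membrane proteoglycans with an endostatin end. In the gill, cartilage stiffens the filaments, a basement membrane underlies the lamellar epithelium, and pillar cells enclose columns of collagen.

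The libraries held 22049066 to 46214540 estimated counts. Levels are given as CPM, the count of a name scaled to a library of 1000000 counts, divided by a composition factor (TMM, trimmed mean of M values), with no length term, so they were compared between fish and not between genes. In such bulk tissue, fewer cells of a type and less RNA per cell cannot be told apart. Station C replicate 2 stood apart from the other 8 fish. Its Spearman correlation with them was 0.765 to 0.786 over names, against 0.90 to 0.94 among the other 8, and its TMM factor was 0.567 against 1.00 to 1.15. The summed level of 11 detected liver markers was 127142 CPM in this fish, against 79.2 to 264 CPM in the others, and 10 gill epithelium markers summed to 4116 CPM, against 10441 to 12563 CPM. Of the liver markers, A2AP, FIBB, FIBG, HEMO and VTNC had at most 3 counts in each of the other 8 fish. The 14 detected skeletal muscle markers summed to 19029 CPM in it, against 646 to 7100 CPM. Its values are marked, and fold changes of Station C from the main edgeR test are also given without it. DESeq2 was not fitted without this fish, so its calls for Station C include it.

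The 29 names fell into 9 fibrillar, 6 FACIT and related, 3 network forming, 3 basement membrane, 2 multiplexin (types XV and XVIII), 2 beaded filament and 2 other names, with 1 transmembrane and 1 anchoring fibril name. Names are best protein matches, 69 of the 104 to human or mouse entries, so stickleback duplicates can share a name and 1 gene can be split over several. The RefSeq annotation of the species lists 49 collagen gene symbols. In 3 cases, 2 names shared 1 assembled gene: CO1A1 with CO1A2, CO6A4 with CO6A6, and COBA1 with COBA2. The triple-helix repeat that Pfam calls Collagen was annotated in 66 of the 104 transcripts, out of 137 in the whole table. These 66 covered 19 of the 29 names. No transcript named CO2A1, CO3A1, CO4A1, CO6A6, CO8A1, CO8A2, COCA1, COKA1, COQA1 or COSA1 carried the repeat. Those names rest on other domains or on the protein match alone.

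Summed over all 29 names, the collagens had 2288, 1885 and 3380.3 CPM in Station A fish, 1947, 2365 (replicate 2) and 1332 CPM in Station C fish, and 2012, 1836 and 1921 CPM in Station B fish. This was 0.232%, 0.207% and 0.352% of all counts at Station A, 0.225%, 0.134% and 0.153% at Station C, and 0.207%, 0.184% and 0.213% at Station B. The stations overlapped, and the highest sum belonged to Station A replicate 3. The TMM scaling multiplied the values of Station C replicate 2 by 1.76, and without it that fish summed to 1341 plain CPM. Of its 2365 CPM, 521 CPM came from CO8A1, which was at 0 in the other 8 fish. That name rested on 1 transcript without a Collagen repeat.

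**Figure D1:**
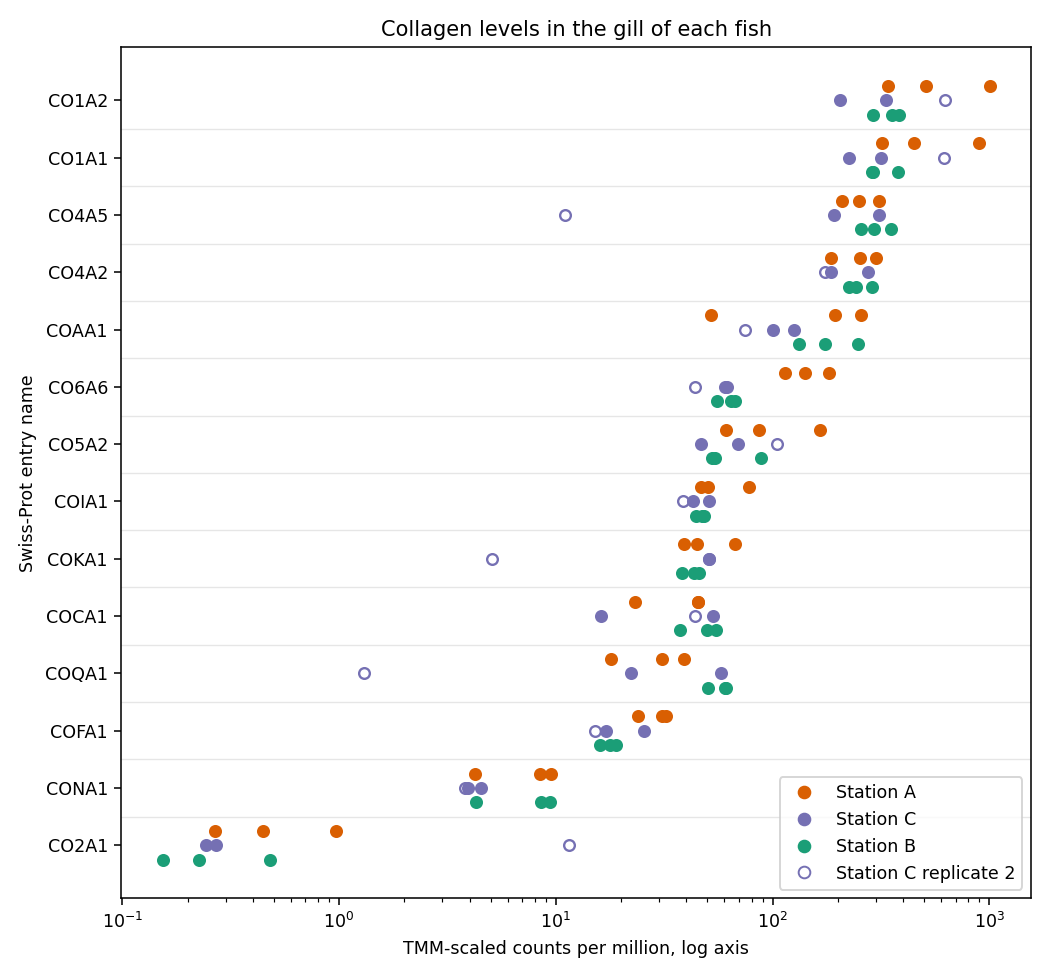
TMM-scaled CPM on a log axis for 14 collagen names in each of the 9 fish, coloured by station, with Station C replicate 2 as an open circle. CO8A1, at 0 in 8 fish, is not drawn. CO6A6 is the name whose 3 Station A points lie well right of the others, and the open circle lies far left for CO4A5, COKA1 and COQA1 and far right for CO2A1.

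Type I collagen, the chief fibril of connective tissue, was highest in 1 Station A fish. CO1A2, its alpha-2 chain, had 510.2, 342 and 1005 CPM in Station A fish, 335, 623 (replicate 2) and 205 CPM in Station C fish, and 290.1, 355 and 384 CPM in Station B fish. CO1A1, its alpha-1 chain, had 451, 321 and 901 CPM at Station A, 316, 621 (replicate 2) and 226 CPM at Station C, and 289, 290.2 and 378 CPM at Station B. Both names moved together, with a ratio of CO1A1 to CO1A2 between 0.818 and 1.11 in the 8 fish and 0.997 in Station C replicate 2. All CO1A1 counts and nearly all CO1A2 counts came from 1 assembled gene. The 2 names were therefore not measured independently of each other. Type I made up 56.4% of the collagen counts in Station A replicate 3, against 28.8% in Station B replicate 1, the lowest fish. The log2 fold change of Station A over Station B was 0.87 ± 0.39 (SE) for CO1A2 and 0.82 ± 0.38 for CO1A1, with edgeR adjusted p = 0.873 for both. Without Station A replicate 3 these values were 0.32 and 0.28. That fish also had the highest sum of 6 detected fibroblast and mesenchyme markers, at 464 CPM. Station C replicate 2 had 312 CPM and the other 7 fish had 148 to 350.0 CPM. Of the 464 CPM, 280 CPM came from 1 marker, PGS2. Among the 8 fish, PGS2, PGFRB and TWST2 were highest in Station A replicate 3, and LUM, PGFRA and TCF21 were not. The part of such cells in the type I level was not tested.

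CO5A2, a chain of type V that is built into type I fibrils, followed the same fish: 86.8, 60.8 and 166 CPM at Station A, 69.5, 104 (replicate 2) and 47.0 CPM at Station C, and 52.6, 54.2 and 88.1 CPM at Station B. The groups overlapped, and its log2 fold change of Station A over Station B was 0.70, or 0.19 without Station A replicate 3. CO5A1, the other type V name found here, ranged from 1.14 to 5.26 CPM in the 8 fish. It stood at 19.3 CPM in Station C replicate 2. The remaining fibrillar names in the 8 fish were COBA1 of type XI with 17.4 to 30.0 CPM, COOA1 of type XXIV with 21.5 to 40.9 CPM, CO2A1 of type II with 0.154 to 0.973 CPM, and COBA2 with up to 12.95 CPM. CO3A1, of type III, had 56 counts in Station A replicate 1 and 0 in the other 8 fish.

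COBA2, also of type XI, separated fish in a way that crossed the stations. It had 0.528, 0.129 and 7.23 CPM in Station A fish, 12.95, 0 (replicate 2) and 0.427 CPM in Station C fish, and 0, 0.224 and 10.2 CPM in Station B fish. Thus 1 fish of each station was high. Nearly all of this came from 1 transcript, DN35108_c0_g1_i1, which had 227, 509 and 377 counts in Station A replicate 3, Station C replicate 1 and Station B replicate 3. It had 0 counts in the other 6 fish. Without this transcript COBA2 stayed at or below 0.60 CPM in every fish. The transcript was part of a larger group found in the same fish, described under other observations. Whether that group comes from stickleback cells was not tested.

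Type VI gave the name with the smallest p of the 26 tested, both for Station A over Station B and for Station C over Station A. This was CO6A6, the alpha-6 chain with von Willebrand factor A domains, which had 141, 115 and 182 CPM in Station A fish, 61.6, 44.1 (replicate 2) and 60.0 CPM in Station C fish, and 64.1, 55.4 and 67.4 CPM in Station B fish. All 3 Station A fish lay above the other 6, while Station C and Station B overlapped. Station A was 2.37-fold above Station B, a log2 fold change of 1.24 ± 0.20 (SE), with an unadjusted edgeR p of 0.000494. The edgeR adjusted p over all 21626 features tested was 0.546, which did not pass the 0.05 threshold. The DESeq2 adjusted p, over 21558 features, was 0.000323, which did. Leaving out 1 fish at a time gave log2 fold changes of 1.04 to 1.39.

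Against Station A, CO6A6 was lower at Station C by a log2 fold change of -1.38 ± 0.27, with adjusted p = 0.342 in edgeR and 0.00121 in DESeq2. Without Station C replicate 2 this was -1.27 ± 0.24. Against Station B the Station C value was -0.17 ± 0.21, and -0.03 without replicate 2. CO6A4, another type VI chain from the same assembled gene, had 48.0, 42.7 and 71.5 CPM at Station A, 39.8, 1.85 (replicate 2) and 20.2 CPM at Station C, and 45.9, 36.8 and 28.6 CPM at Station B. Its Station A and Station B values overlapped. Both names summed to 189, 157 and 254 CPM at Station A, 101, 45.95 (replicate 2) and 80.3 CPM at Station C, and 110.0, 92.2 and 96.0 CPM at Station B. Fitted as 1 assembled gene, the sum gave a log2 fold change of 1.03 ± 0.20 for Station A over Station B, with edgeR adjusted p = 0.702.

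Type IV, the basement membrane collagen, had overlapping levels at all stations, and Station C replicate 2 stood apart in the ratio of its 2 main names. CO4A5 had 249, 309 and 209.9 CPM in Station A fish, 310.4, 11.1 (replicate 2) and 192 CPM in Station C fish, and 351, 295 and 257 CPM in Station B fish. CO4A2 had 252, 301 and 187 CPM in Station A fish, 274, 174 (replicate 2) and 187 CPM in Station C fish, and 287, 243 and 226 CPM in Station B fish. The ratio of CO4A5 to CO4A2 was 0.989 to 1.22 in 8 fish and 0.0637 in Station C replicate 2. Most of the CO4A2 level of that fish came from 1 transcript, DN2617_c0_g4_i1, which carried Arf and FAD_oxidored domains beside the Collagen repeat and had 142 CPM there, against 34.7 to 60.5 CPM in the other 8 fish. The other CO4A2 transcripts summed to 31.5 CPM in Station C replicate 2, against 128 to 259 CPM in the other 8 fish. Set against these alone, CO4A5 had a ratio of 0.352 in that fish and 1.19 to 1.64 in the other 8. The log2 fold changes of Station A over Station B were -0.22 ± 0.19 for CO4A5 and -0.02 ± 0.20 for CO4A2. The third name, CO4A1, had 5 counts in 1 fish. CO7A1, the anchoring fibril collagen, ranged from 11.3 to 30.2 CPM in the 8 fish and had 2.84 CPM in Station C replicate 2.

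The multiplexins COIA1 (type XVIII) and COFA1 (type XV) end in the endostatin domain. COFA1 had 31.0, 23.9 and 32.2 CPM in Station A fish, 25.7, 15.2 (replicate 2) and 16.99 CPM in Station C fish, and 16.01, 19 and 17.9 CPM in Station B fish. Station A lay above Station B without overlap, by a log2 fold change of 0.73 ± 0.18, with adjusted p = 0.873 in edgeR and 0.0877 in DESeq2. COIA1 had 50.2, 46.8 and 77.7 CPM in Station A fish, 50.7, 38.6 (replicate 2) and 43.0 CPM in Station C fish, and 48.3, 44.5 and 47.5 CPM in Station B fish. Station A replicate 3 lay above and Station C replicate 2 below the other 7 fish.

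COQA1, type XXVI with an EMI domain, was the only tested name whose Station A fish all lay below the Station B fish. It had 31.0, 39.2 and 17.96 CPM in Station A fish, 57.6, 1.31 (replicate 2) and 22.2 CPM in Station C fish, and 60.2, 61.0 and 50.3 CPM in Station B fish. The log2 fold change of Station A over Station B was -0.95 ± 0.28, with adjusted p = 0.873 in edgeR and 0.257 in DESeq2. Station C over Station B gave -1.08 ± 1.08, and -0.51 ± 0.40 without replicate 2. Its neighbour among the other types, COSA1 of type XXVIII, had 0.912 to 6.84 CPM in the 8 fish and 0 counts in Station C replicate 2, where a count of 0 allows up to 3 counts.

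COAA1, type X, is the network collagen of hypertrophic cartilage in mammals. It had 195, 52.0 and 257 CPM in Station A fish, 125, 74.4 (replicate 2) and 100.03 CPM in Station C fish, and 249, 174 and 133 CPM in Station B fish. The Station C fish all lay below the Station B fish, with a log2 fold change of -0.89 ± 0.33 and an edgeR adjusted p of 0.846, or -0.71 ± 0.29 without replicate 2. The lowest and the highest of all 9 values both belonged to Station A. CO8A2, type VIII, stayed between 0.207 and 0.806 CPM in all 9 fish.

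The FACIT and related names summed to 157, 158 and 149 CPM in Station A fish, 174, 85.6 (replicate 2) and 139.6 CPM in Station C fish, and 171, 148 and 143 CPM in Station B fish. COCA1, type XII, had 45.5, 23.3 and 45.1 CPM at Station A, 52.9, 43.7 (replicate 2) and 16.2 CPM at Station C, and 49.7, 55.0 and 37.4 CPM at Station B. COKA1, type XX, had 44.8, 67.5 and 38.9 CPM at Station A, 51.0, 5.09 (replicate 2) and 51.2 CPM at Station C, and 38.1, 43.6 and 45.99 CPM at Station B. Neither separated the stations when all fish were counted. In the 8 fish COLA1 (type XXI) ranged from 25.4 to 53.9 CPM, COEA1 (type XIV) from 17.9 to 44.1 CPM, COMA1 (type XXII) from 2.02 to 6.78 CPM, and CO9A1, a chain of the type IX that coats type II fibrils in cartilage, from 0.306 to 1.42 CPM. CONA1, the transmembrane type XXIII, had 9.49, 4.22 and 8.47 CPM in Station A fish, 4.54, 3.83 (replicate 2) and 3.94 CPM in Station C fish, and 8.56, 4.28 and 9.38 CPM in Station B fish. Its log2 fold change of Station C over Station B was -0.85 ± 0.37, with edgeR adjusted p = 0.846, and -0.80 ± 0.39 without replicate 2.

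Over the whole set, 26 names were tested in each comparison, and 3 (CO3A1, CO4A1 and CO8A1) had too few counts or too few fish with counts. A call required an adjusted p of at most 0.05 and a change above 2-fold. For Station A over Station B, edgeR called 0 of the 26 names, as it did for 0% of all features. DESeq2 called 1 of 25, CO6A6, against 0.51% of all features. An unadjusted edgeR p under 0.05 was found for 3 of 26, CO6A6, COFA1 and COQA1, against 5.52% of all features. The values of 2 names lay wholly above Station B, CO6A6 and COFA1, against 5.14% of all features, and those of 1 lay wholly below, COQA1, against 6.03%. In this comparison 19 of the 26 names had a positive fold change and the median was 0.28 on the log2 scale, beside 52.6% positive and a median of 0.02 over all features. Names sharing 1 assembled gene were counted separately here. Without Station A replicate 3 the log2 fold changes of CO1A2, CO1A1, CO5A2 and COIA1 fell to 0.32, 0.28, 0.19 and 0.06. Those of CO4A5, CO4A2, COKA1 and COQA1 rose.

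For Station C over Station B, edgeR called 0 of 26 names and 0% of all features, and DESeq2 called 0 of 24, against 0.286%. An unadjusted p under 0.05 was found for 1 name, COAA1, against 3.73% of all features. No name lay wholly above Station B, against 6.14% of features, and 1 lay wholly below, COAA1, against 7.13%. Without Station C replicate 2, 3 names lay wholly above, COBA1, COEA1 and COKA1, against 12.7% of features, and COAA1 alone lay wholly below, against 13.6%. The median was -0.12, with 11 names positive, beside 0.02 and 51.9% positive over all features, and it was -0.14 with 8 positive without Station C replicate 2. Without that fish an unadjusted p under 0.05 was found for 2 names, COEA1 at a log2 fold change of 0.81 ± 0.21 and COBA1 at 0.46 ± 0.18, both with edgeR adjusted p = 0.752. The same fits gave 6.19% of all features under that p.

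Between Stations C and A, with C over A, edgeR called 0 of 26 names, against 0.00455% of features, and DESeq2 called 1 of 24, CO6A6, against 1.26%. CO6A6 was also the 1 name with an unadjusted p under 0.05, against 4.22% of features. The median of the 26 was -0.42 on the log2 scale with 7 positive, beside 0.03 and 52.4% positive over all features. Without Station C replicate 2 it was -0.39 with 6 positive, edgeR called 0 names, and 1 had an unadjusted p under 0.05, against 6.18% of features. Each station enters 2 of the 3 comparisons, so these are not independent of each other.

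**Figure D2:**
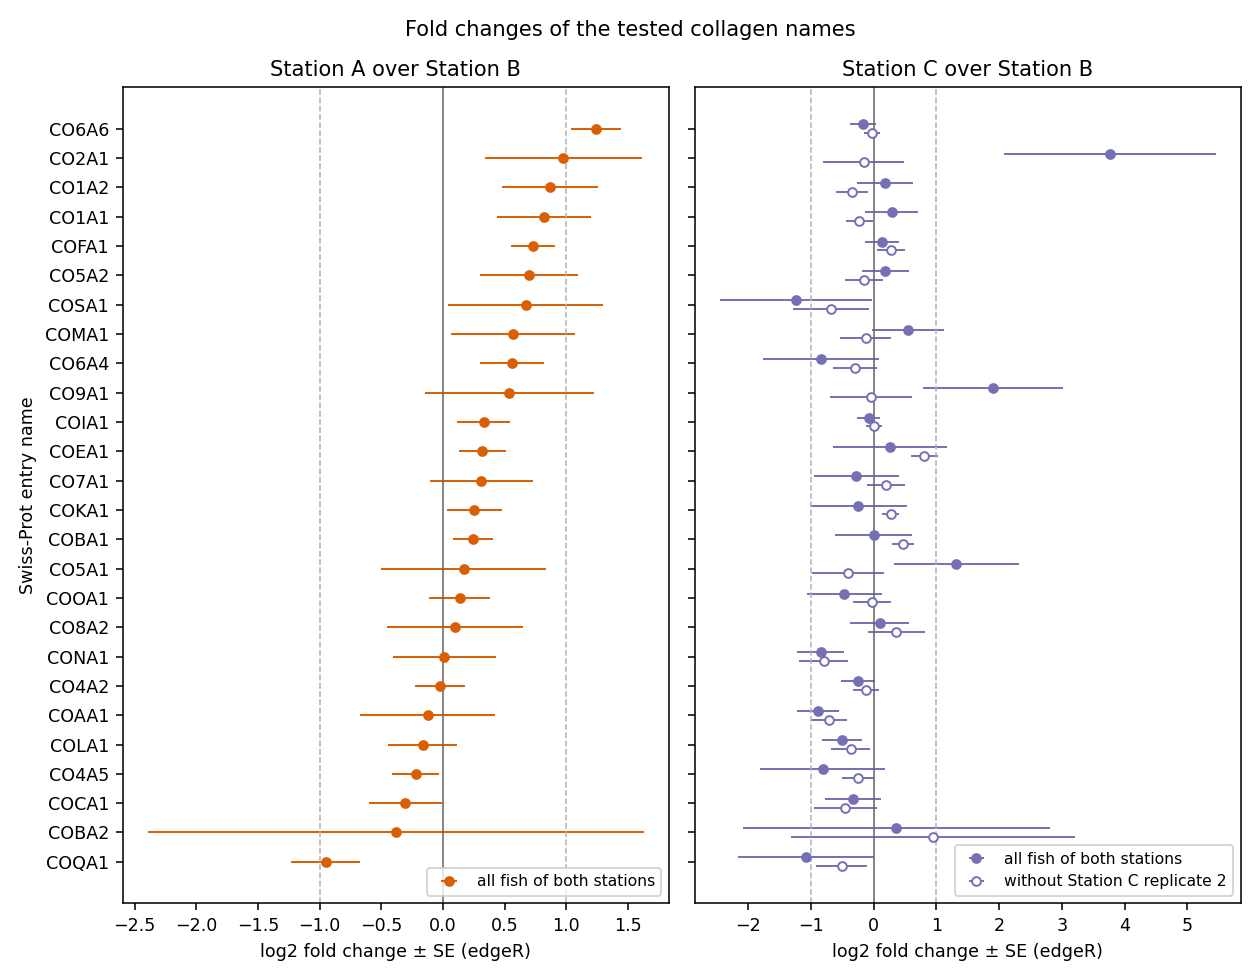
Log2 fold change with its standard error from edgeR for the 26 tested collagen names, for Station A over Station B on the left and Station C over Station B on the right, where open circles leave out Station C replicate 2. Dashed lines mark a 2-fold change. CO6A6 at 1.24 is the largest positive value on the left, and CO2A1, CO9A1 and CO5A1 lie far right on the right only while replicate 2 is included.

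CO2A1, named for the cartilage fibril chain, showed how far 1 fish set the Station C values. The name rested on 1 transcript without any annotated domain. It had 0.446, 0.973 and 0.267 CPM in Station A fish, 0.271, 11.5 (replicate 2) and 0.244 CPM in Station C fish, and 0.226, 0.154 and 0.478 CPM in Station B fish. The log2 fold change of Station C over Station B was 3.77 ± 1.69, and -0.16 ± 0.65 without replicate 2. CO9A1 gave 1.90 and -0.04, and CO5A1 gave 1.31 and -0.41, with and without that fish. None of these 3 names passed the adjusted threshold in edgeR with or without the fish.

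Station C replicate 2 lay below all other fish for 15 of the 29 names, within their range for 9 and above them for 5. Among names with at least 10 counts on average, that was 55.6% below and 18.5% above for the collagens, beside 32.9% below and 35.6% above for all 9333 names. With plain CPM, 17 of the 29 collagen names lay below and 4 above. The shares over all names were not computed on that scale, so these 2 counts have no background. The names above were CO8A1, CO2A1, CO9A1, CO5A1 and, on the TMM scale only, COMA1. COQA1 stood at 0.0292 times the median of the other 8 fish, CO4A5 at 0.0401 times, CO6A4 at 0.0447 times and COEA1 at 0.0900 times, while CO2A1 stood at 42.8 times. Osteoblast markers, of which 2 of 11 were in the table, summed to 20.3 CPM in this fish against 0.792 to 6.10 CPM in the other 8. Most of the excess was OSTCN, at 14.1 CPM against at most 0.446 CPM, while SP7 had 6.20 CPM against up to 5.75 CPM. Chondrocyte markers, also 2 of 10, summed to 6.55 CPM against 4.92 to 6.99 CPM. Nearly all of that sum was EPYC, since HPLN1 had at most 0.0939 CPM in any fish. Neither sum stands for a cell type. The part of liver, skeletal or connective tissue in these values was not tested.

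**Figure D3:**
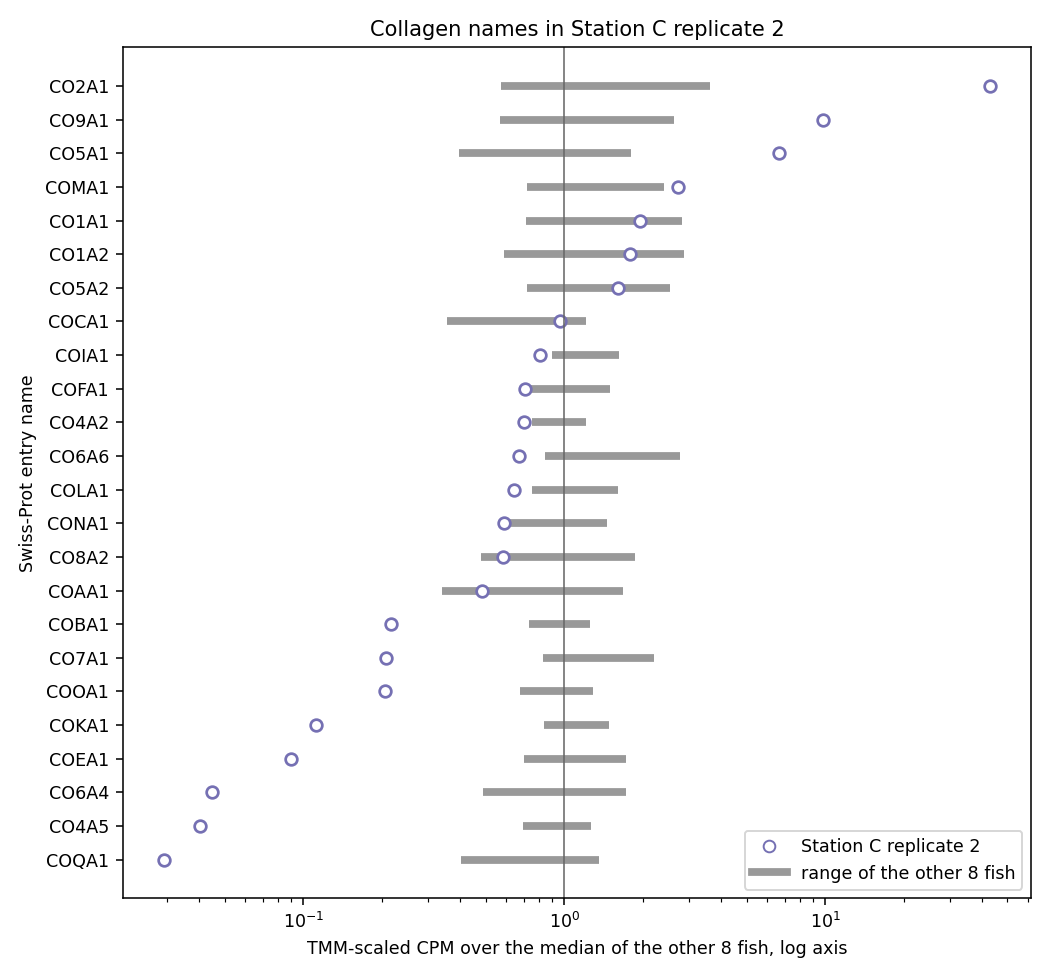
Level of 24 collagen names in Station C replicate 2 (open circles) over the median of the other 8 fish, beside the range of those 8 fish (grey bars), on a log axis. Names at 0 in any fish are not drawn. The circles run from 0.0292 for COQA1 to 42.8 for CO2A1, and type I (CO1A1 and CO1A2) lies inside the range of the other fish.

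CO8A1, named for a type VIII chain, was found in Station C replicate 2 alone, with 10348 counts or 521 CPM (296 plain CPM), and 0 counts in the other 8 fish. That is at least 6241-fold higher, taking 3 counts in each of the 8 libraries. It rested on 1 transcript that carried a C1q domain and no Collagen repeat, from an assembled gene whose other named transcript matched C1QT6, a C1q and tumour necrosis factor related protein. A type VIII chain itself ends in a C1q domain, so the match alone does not separate the 2 families.

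Single transcripts of 3 names were at 0 in some fish and among the most counted of their name in others. COEA1, type XIV, has a pair of transcripts with fibronectin type III repeats that never occurred in the same fish. DN5145_c0_g1_i11 had 426, 771 and 730.2 counts in Station A fish and 984, 29.7 (replicate 2) and 0 counts in Station C fish, and was at 0 in all 3 Station B fish. DN5145_c0_g1_i12 was at 0 in all Station A fish, had 0, 0 (replicate 2) and 1762 counts in Station C fish, and 711, 427 and 707 counts in Station B fish. Each made up 65.2% to 78.1% of the COEA1 counts where it occurred, and the COEA1 sums of 23.4 to 31.5 CPM in Station A fish and 17.9 to 24.4 CPM in Station B fish overlapped. Counting 3 reads as the floor in each fish, i11 was at least 242-fold higher in Station A than in Station B, and i12 at least 167-fold lower. DESeq2 called both (adjusted p = 5.65e-19 and 1.06e-16) and edgeR called neither (adjusted p = 0.171 for both).

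CO6A6 and CO6A4 had transcripts of the same kind. DN1252_c0_g1_i1 of CO6A6 had 352, 983 and 2500.0 counts in Station A fish, 397, 539 (replicate 2) and 0 counts in Station C fish, and 0 in all Station B fish. DN1252_c0_g1_i7 of CO6A4 was at 0 in all Station A fish, had 1303, 0 (replicate 2) and 738 counts in Station C fish, and 984, 508 and 461 counts in Station B fish. These are at least 464-fold higher and at least 177-fold lower in Station A than in Station B. DN1252_c0_g1_i6 of CO6A6 occurred in every fish, with 707, 1364 and 2289 counts at Station A, 278, 144 (replicate 2) and 418 counts at Station C, and 328, 282 and 473 counts at Station B. Its log2 fold change of Station A over Station B was 2.19 in edgeR (adjusted p = 0.421), and DESeq2 called it (adjusted p = 0.00104). DN1252_c0_g1_i2 of CO6A4 was the sixth transcript that DESeq2 called here, with a log2 fold change of 1.92.

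**Figure D4:**
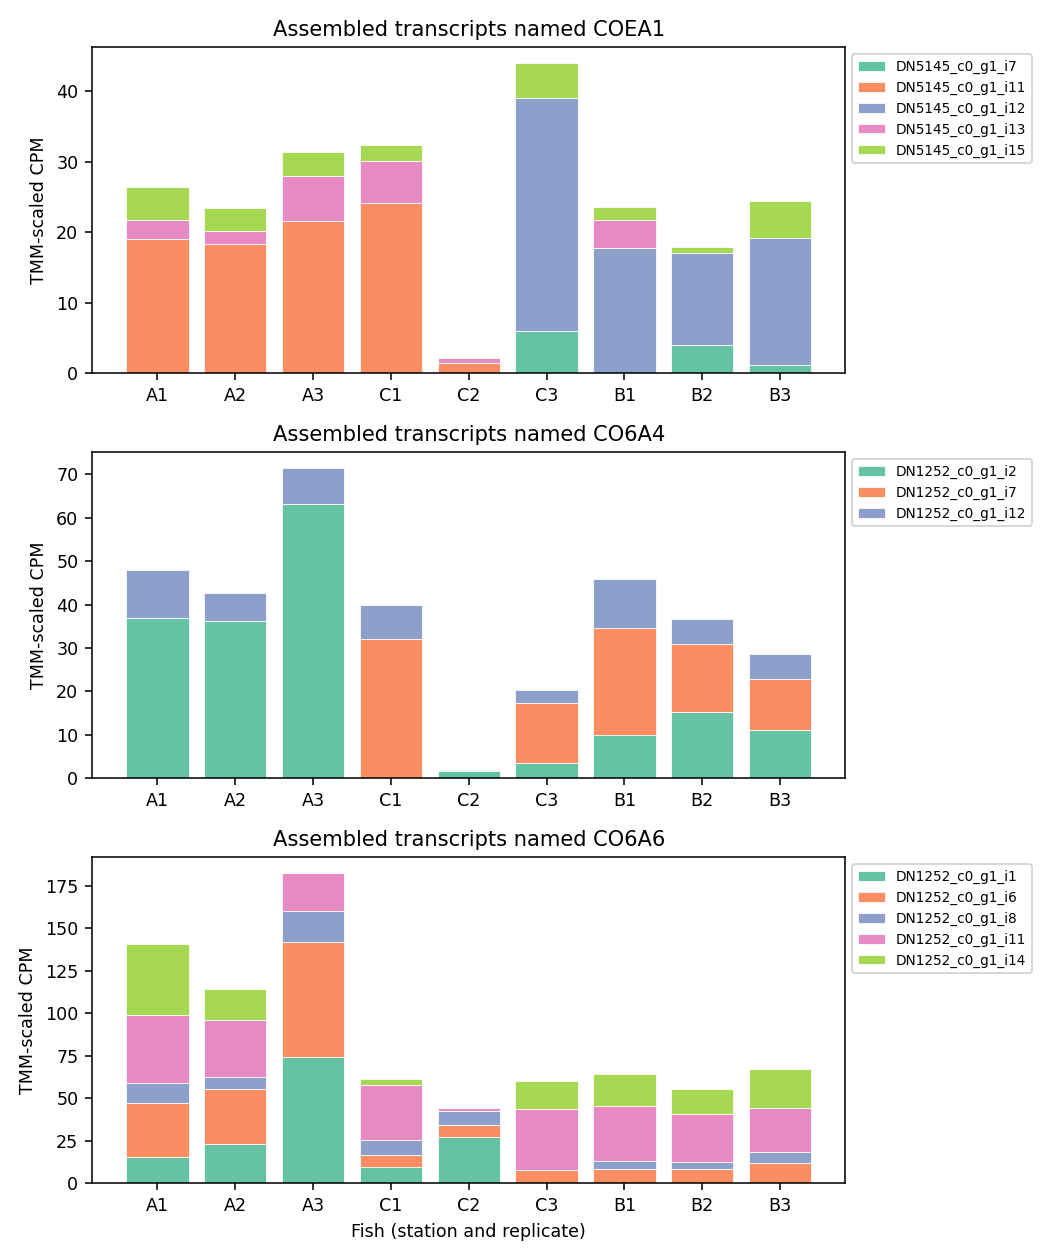
Stacked bars of TMM-scaled CPM for the assembled transcripts named COEA1, CO6A4 and CO6A6 in each fish (letter for the station, digit for the replicate). For COEA1 the orange transcript i11 fills 5 fish and the blue transcript i12 the other 4, and for CO6A6 the bars of the 3 Station A fish are the tallest.

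Of the 87 collagen transcripts tested for Station A over Station B, edgeR called 0, against 0% of all transcripts, and 9 had an unadjusted p under 0.05, against 3.42%. DESeq2 called 6 of 87, against 1.15%, all of them in the 3 names above. These 6 all came from the assembled genes DN1252_c0_g1 and DN5145_c0_g1, so they were not independent of each other. For Station C over Station B, edgeR called 0 (background 0%), 2 had an unadjusted p under 0.05 (background 2.7%), and DESeq2 called 1 (background 1.46%), DN5505_c0_g1_i3 of COLA1 with adjusted p = 0.0141. That type XXI transcript had 18.8, 6.2 (replicate 2) and 43.7 counts in Station C fish and 237, 73.5 and 71.6 counts in Station B fish, without overlap. Without Station C replicate 2, 6 of 94 collagen transcripts had an unadjusted p under 0.05, against 4.32% of all transcripts, and edgeR called 0. With Station C over Station A, edgeR called 0 (background 0%, with 5 collagen transcripts and 3.63% of all transcripts at an unadjusted p under 0.05) and DESeq2 called 4 (background 2.75%). These were DN1252_c0_g1_i6 of CO6A6, DN5505_c0_g1_i3 of COLA1, DN11149_c0_g1_i5 of CONA1 and DN4765_c0_g1_i1 of COBA1. The COBA1 transcript was at 0 in all Station A fish and had 279, 39.2 (replicate 2) and 403 counts in Station C fish. Without replicate 2, 9 of 96 collagen transcripts had an unadjusted p under 0.05 for Station C over Station A, against 5.07% of all transcripts, and edgeR called 0.

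Transcripts at 3 counts or fewer in at least 1 of the 8 fish were about as common among collagens as elsewhere. Of 98 collagen transcripts with a mean of at least 10 counts in the 8 fish, 41 (41.8%) had 3 counts or fewer in at least 1 of them, beside 38.2% of 58145 transcripts in all. At the level of names this held for 1 of 26 collagens, COBA2, or 3.85%, beside 4.28% of 9196 names. Of the same 98 collagen transcripts, 25 (25.5%) had 3 counts or fewer in at least 3 of the 8 fish, beside 20.8% of all transcripts.

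The proteins that make, process, bind and degrade collagen were taken from 5 lists with 88 names, of which 60 were in the table. For Station A over Station B, 53 were tested, edgeR and DESeq2 called 0 (DESeq2 called 0.51% of all features), 2 had an unadjusted p under 0.05, against 5.52% of all features, and the median log2 fold change was 0.05. The 2 names were FBLN1, the matrix glycoprotein fibulin-1, and PCOC2, an enhancer of procollagen C-terminal cleavage. FBLN1 had 38.0, 24.6 and 61.9 CPM in Station A fish, against 14.4, 26.9 and 21.9 CPM in Station B fish. PCOC2 had 32.0, 21.5 and 32.1 CPM in Station A fish, against 17.8, 11.9 and 23.3 CPM in Station B fish. Both pairs of groups overlapped, and both names had edgeR adjusted p = 0.873.

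For Station C over Station B, 54 list names were tested, edgeR called 0, DESeq2 called 1, against 0.286% of all features, 2 had an unadjusted p under 0.05, against 3.73%, and the median was 0.01, or -0.14 without Station C replicate 2. P4HA3, a catalytic subunit of collagen prolyl 4-hydroxylase, had 3.70, 6.05 (replicate 2) and 2.70 CPM in Station C fish, against 1.35, 0.831 and 1.15 CPM in Station B fish. Its groups did not overlap, and the log2 fold change was 1.90 ± 0.44, with adjusted p = 0.846 in edgeR and 0.0211 in DESeq2. Without replicate 2 it was 1.53, with edgeR adjusted p = 0.752. LOXL4, a lysyl oxidase that cross-links collagen, had 12.6, 11.3 (replicate 2) and 11.5 CPM in Station C fish, against 25.5, 15 and 20.2 CPM in Station B fish, a log2 fold change of -0.77 ± 0.26 with edgeR adjusted p = 0.846, or -0.73 without replicate 2 (adjusted p = 0.752). With Station C over Station A, 55 list names were tested, both tools called 0 (DESeq2 called 1.26% of all features), 2 had an unadjusted p under 0.05, against 4.22%, and the median was -0.06, or -0.23 without replicate 2. The 2 names were P4HA3, with a log2 fold change of 1.22, or 0.81 without replicate 2, and PGBM, a basement membrane proteoglycan. PGBM had 0.123, 2477 (replicate 2) and 0.282 CPM in Station C fish, against 0.402, 0.142 and 1.30 CPM in Station A fish, and its log2 fold change was 10.43, or -1.59 without replicate 2.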

How the data were processed

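The authors trimmed the reads with Trimmomatic, assembled all 9 libraries de novo with Trinity, removed transcripts of low expression, annotated them with Trinotate and quantified them with Salmon. The deposited table holds estimated counts per transcript, not normalized, 48.8% of them whole numbers. No transcript or protein sequences were used here, so none are printed. Estimated counts were summed per first Swiss-Prot entry name (per assembled gene where there was none) and rounded. The main test was the quasi-likelihood F test of edgeR 4.0.16 (R 4.3.3) after filterByExpr and TMM, on the 6 fish of each comparison, with Benjamini-Hochberg adjustment over all features. The SE is the absolute log2 fold change over the square root of F. DESeq2 1.42.0, the tool of the study, was an alternative, as were other scalings and filters, all 9 fish in 1 fit, a replicate block, sums per assembled gene and leaving out each fish. The script was tested on simulated data. Replicates are separate fish.

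Values in every fish are given for the 12 names with the highest mean CPM, every called name, and the 3 names with the smallest p for Station A and for Station C over Station B. From the partner lists, called names and the 2 smallest p for Station A and for Station C over Station B are named. The transcripts, COBA2, CO6A4, the 2 partners named for Station C over Station A and other names shown beside these were chosen after their values were seen. The members and lists were chosen with earlier results of these data known. Replicate numbers did not pair the fish.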

Additional observations from a re-analysis of the deposited data

Results flagged for a closer look

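CO6A6, the type VI alpha-6 chain, stood on opposite sides of the Station B mean at the 2 higher-chloride stations. All 3 Station A fish lay above the mean of the Station B fish and all 3 Station C fish lay below it. The Station C fish had 61.6, 44.1 (replicate 2) and 60.0 CPM, against a Station B mean of 62.3 ± 6.20 CPM (SD), so the difference at Station C lay within the spread of Station B for 2 of its 3 fish. The direct comparison of Station C with Station A gave a log2 fold change of -1.38 (edgeR adjusted p = 0.342, DESeq2 adjusted p = 0.00121). Without replicate 2 it was -1.27 in edgeR. CO6A4 came from the same assembled gene, and the pattern did not hold for the sum of both names. That sum was 101 CPM in Station C replicate 1, above its Station B mean of 99.4 CPM. It was 45.95 (replicate 2) and 80.3 CPM in the other Station C fish, below that mean.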

How the results depend on the processing

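With edgeR, 0 collagen names and 0 collagen transcripts were called in each of the 3 comparisons under every alternative, leaving out each fish included (lowest and highest count 0). DESeq2 called 1 collagen name, CO6A6, for Station A over Station B and 1, CO6A6, for Station C over Station A, also with a CPM filter, and 6, 1 and 4 collagen transcripts for Station A over B, C over B and C over A. The log2 fold change of CO6A6 kept its direction and passed with DESeq2 (1.24 and -1.39) and with the CPM filter (1.24 and -1.38). Over all features edgeR called 0, 0 and 1 names, and DESeq2 called 110, 61 and 270, or 116, 73 and 221 with the CPM filter; for transcripts DESeq2 called 579, 729 and 1371 against 0 in edgeR, and all 9 fish in 1 fit gave 1, 9 and 5. Without a low-count filter 8 names were called for Station A over B, and leaving out 1 fish gave 0 to 5 there, the 5 without Station B replicate 2, 0 to 0 for Station C over B and 0 to 0 for Station C over A. The 1 name of Station C over A was lost (0) with RLE scaling, library totals only, all 9 fish and the replicate block. The causes were not tested.

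With the replicate block, 0 names were called in every comparison, and CO1A2 had 0.73 and CO1A1 0.69 for Station A over Station B. Pairing was checked on the deviation of each fish from its station mean. These deviations correlated at 0.0848, 0.0583 and 0.324 between same-numbered Station A and B fish. Between same-numbered Station C and B fish they correlated at -0.0843, -0.0176 and -0.159, so the numbers were not read as pairs. The levels themselves had Spearman correlations of 0.925, 0.938 and 0.924 between same-numbered Station A and B fish.

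Several fold changes turned sign, most of them small, but also the 3.77 of CO2A1 for Station C over B. CONA1 for Station A over B was -0.026 with library totals only, -0.0057 without a filter and -0.0042 with all 9 fish, against 0.01. With library totals only, Station C over B gave -0.15 for CO1A2, -0.043 for CO1A1 and -0.091 for CO5A2, and the mean collagen sum of Station B was 2013 plain CPM against 1923. Leaving out 1 fish gave these ranges for Station A over B: CO4A2 -0.19 to 0.14, COAA1 -0.58 to 0.30, COKA1 -0.012 to 0.41, CONA1 -0.26 to 0.29. For Station C over B they were CO1A2 -0.34 to 0.48, CO1A1 -0.23 to 0.56, CO2A1 -0.16 to 4.36, CO5A2 -0.15 to 0.46, COCA1 -0.66 to 0.028, COFA1 -0.13 to 0.28, COIA1 -0.19 to 0.0094 and COKA1 -0.60 to 0.27. For Station C over A, CO1A1 had -1.05 to 0.034. With 3 fish a station and best-match names, small differences and split or merged duplicates were not resolvable, and the counts of low names such as CO2A1 (5 to 41 in 8 fish) limit their precision.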

Other observations

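A group of 603 transcripts from 570 assembled genes had at least 10 counts in each of Station A replicate 3, Station C replicate 1 and Station B replicate 3 and at most 3 counts in each of the other 6 fish. It was 23.7% of the 2549 transcripts present in exactly 3 fish in this sense. Its members took 0.125%, 0.156% and 0.113% of the counts of those 3 libraries. The group was found after the COBA2 values had been seen.

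Collagens were 104 of all 98643 transcripts and 7 of the 2549 present in exactly 3 fish. Of the 603 transcripts of this group, 4 were named as collagens. Besides the COBA2 transcript, they were DN69444_c0_g2_i1 of COOA1, with 131, 257 and 244 counts in the 3 fish in the order above, and a pair named CO4A2. Without them COOA1 had 30.5, 27.8 and 37.0 CPM in Station A fish, 29.5, 6.50 (replicate 2) and 23.5 CPM in Station C fish, and 32.7, 21.5 and 30.9 CPM in Station B fish. CO4A2 took 2.70, 5.10 and 3.18 CPM from the pair in the 3 fish.

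The best matches of the group differed from those of the table. Of its 365 named transcripts, 19 (5.21%) matched entries of the blood flukes Schistosoma, against 0.119% of all named transcripts, 24 (6.58%) matched Caenorhabditis entries against 0.562%, and 26 (7.12%) matched Drosophila melanogaster entries against 0.784%. Zebrafish entries made up 3.56% against 14.8%. Whether these transcripts come from stickleback cells was not tested.

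The COEA1 arrangement of 5 and 4 fish was counted after the COEA1 and CO6A6 values had been seen. The COEA1 transcripts fit it by construction, and the CO6A6 transcript had already been seen to fit it. The collagen counts that follow were therefore known beforehand and measure no enrichment. Collagens made up 104 of all 98643 transcripts. Over all transcripts, 17 were present in the 3 Station A fish and Station C replicates 1 and 2 and at or below 3 counts in the others, of which 2 were collagens (COEA1 and CO6A6), and 23 showed the reverse, of which 1 was a collagen (COEA1).

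Matrix partners in Station C replicate 2 went both ways, and those given here were chosen after their values were seen. PGBM (perlecan, a basement membrane proteoglycan) had 2477 CPM against 0.123 to 1.30 CPM in the other 8 fish. FINC (fibronectin) had 1851 CPM against 67.3 to 139 CPM. NID1 (nidogen, which links type IV collagen and laminin) had 560.2 CPM against 16.2 to 31.7 CPM. The laminin chains LAMC1 and LAMB1 lay below the other 8 fish. LAMC1 had 0.228 CPM against at least 9.797 CPM, and LAMB1 had 11.1 CPM against at least 45.8 CPM. POSTN (periostin) was also below, at 28.8 CPM against at least 38.1 CPM. NID2 lay within the range of the other 8 fish, at 17.1 CPM against 12.2 to 18.3 CPM.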
